A study of Mus musculus with 8 samples.

Results

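The E proteins and their Id inhibitors are 2 small groups of helix-loop-helix genes, and their RNA was measured in the medial ganglionic eminence (MGE) of WT and Nkx2-1cKO mouse embryos. The genes are Tcf3, Tcf4 and Tcf12, which encode the E proteins, and Id1, Id2, Id3 and Id4, which encode the inhibitors. They were chosen by name, and their probes were found through the transcript accession printed for each probe. These 7 genes, of 17178 that could be matched to a symbol, had 13 of the 41174 probes on the array. All 13 probes were well above background on all 8 arrays and were tested.

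E proteins are broadly expressed basic helix-loop-helix (bHLH) factors. They bind the E-box, CANNTG, as dimers with each other or with tissue-restricted bHLH factors such as the proneural proteins that start neuronal differentiation. Id proteins have the helix-loop-helix but lack the basic region that contacts DNA, so that an E protein held in a dimer with an Id protein cannot bind an E-box. In the embryonic brain, Id genes are known from dividing progenitors, where BMP signalling through Smad proteins is an inducer of several of them. Tcf4 is the bHLH gene of that name and not Tcf7l2, a Wnt effector that shares the nickname.

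Total RNA came from MGE dissected from C57BL/6 embryos at embryonic day 13.5 and was hybridised in 1 colour to whole mouse genome arrays, with 4 WT and 4 Nkx2-1cKO samples. The labels give the genotype of both groups as Nkx2-1flox/+, with Olig2tva-cre absent in WT and present in Nkx2-1cKO, whereas the study's methods name a strain with both alleles floxed (Nkx2-1f/f) together with Olig2-tva-Cre and an AI14 reporter. Cre was driven from Olig2, so deletion takes place only in cells with a history of Olig2 expression. A difference between the groups holds both the loss of Nkx2-1 and the presence of the Cre allele, which cannot be told apart. The labels do not say whether each sample came from its own embryo or litter, so the p-values measure the spread between these samples. Levels are log2 signals relative to the 75th percentile of the array, and levels of different probes were not ranked; where 2 genes were compared, the quantity is how their difference within an array changed between the groups.

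The arrays lay on 2 slides, each with 2 WT and 2 Nkx2-1cKO samples, and 71.1% to 79.5% of the probes of an array were well above background. Nkx2-1 itself was lower by 6.34 on the log2 scale in Nkx2-1cKO (log2 fold change -6.34, standard error 0.11, adjusted p = 4.77e-09, limma), at 1.24% of WT. Where its probe lies relative to the deleted part was not given in the sources used here. Of the genes that mark the MGE, 9 of 10 fell, where 0.851% of all tested genes did so. Among them were Lhx6 (-4.20) and Lhx8 (-3.67), and the tenth did not pass. WT replicate 1 stood apart from the others: its dimmest signal well above background was -5.64 against -7.15 to -6.75 on the other 7 arrays, and each call on an E protein or Id probe is therefore also given without it.

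The stretches upstream of the first Tcf12 start and of Id4 are shown as an example of a gene that was lower and a gene that was higher on both probes. They are the 250 bases before the annotated start (RefSeq, GRCm38.p6), 5′ to 3′ on the strand of the gene, and capitals mark each CANNTG. The Tcf12 stretch is chr9:72111820-72112069 on the minus strand and the Id4 stretch is chr13:48260866-48261115 on the plus strand.
Tcf12: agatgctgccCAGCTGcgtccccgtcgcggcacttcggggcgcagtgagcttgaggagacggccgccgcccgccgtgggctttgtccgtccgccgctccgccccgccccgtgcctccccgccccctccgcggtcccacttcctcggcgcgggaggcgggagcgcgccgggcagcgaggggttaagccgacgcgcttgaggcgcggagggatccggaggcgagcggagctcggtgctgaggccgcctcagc
Id4: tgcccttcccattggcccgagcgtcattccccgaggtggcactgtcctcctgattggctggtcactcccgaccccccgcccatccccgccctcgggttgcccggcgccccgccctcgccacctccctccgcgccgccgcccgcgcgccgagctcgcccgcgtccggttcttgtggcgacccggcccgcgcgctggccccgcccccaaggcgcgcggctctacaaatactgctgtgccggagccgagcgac
The Tcf12 stretch holds 1 E-box, CAGCTG, beginning 240 bases before the start, and the Id4 stretch holds none. The windows before 2 further Tcf12 starts hold 1 E-box, 149 bases before, and none. The Tcf3 window holds 1 at 54 bases before its start, the Id2 window 1 at 196 bases before, again CAGCTG, and the Id3 window none. No window for Id1 was used here, and that of Tcf4 is not shown. CANNTG, which reads the same on both strands, was in 66.2% of all 32851 windows of this length and CAGCTG, which is 1 form of it, in 13%, so that 1 match in a window is common. Among windows of genes past the threshold, CAGCTG was in 20.2% of 119 for genes lower in Nkx2-1cKO and 21.1% of 71 for genes higher. The share over the windows of all tested genes was 12.4%. CACCTG, a further form searched on both strands, went the other way, in 14.3% and 11.3% of these windows against 16.6%, and CANNTG as a whole was in 61.3% and 59.2% against 59.7%. These shares are descriptions over letters, with several windows for some genes and no test.

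Among the E proteins and Id inhibitors, Id4 rose in Nkx2-1cKO and 1 probe each of Tcf4 and Tcf12 fell, while Tcf3, Id1, Id2 and Id3 had no probe past the threshold. Over all 31280 tested probes, 1.04% passed an adjusted p of 0.05 (limma, Benjamini-Hochberg), 0.422% higher and 0.614% lower in Nkx2-1cKO. Of the 13 E protein and Id probes, 2 passed as higher, both of Id4, and 2 passed as lower. All 4 Nkx2-1cKO arrays lay below all 4 WT arrays on 4 of the 13 probes, both of Tcf4 and both of Tcf12, where 4.12% of all tested probes did so, and above them on the 2 Id4 probes, where 2.32% of all tested probes did so. By the brighter probe of each gene, 1 of 7 genes passed, Id4, against 1.34% of all 14447 tested genes. In dissected tissue, fewer cells of a type and less RNA per cell cannot be told apart.

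**Figure D1:**
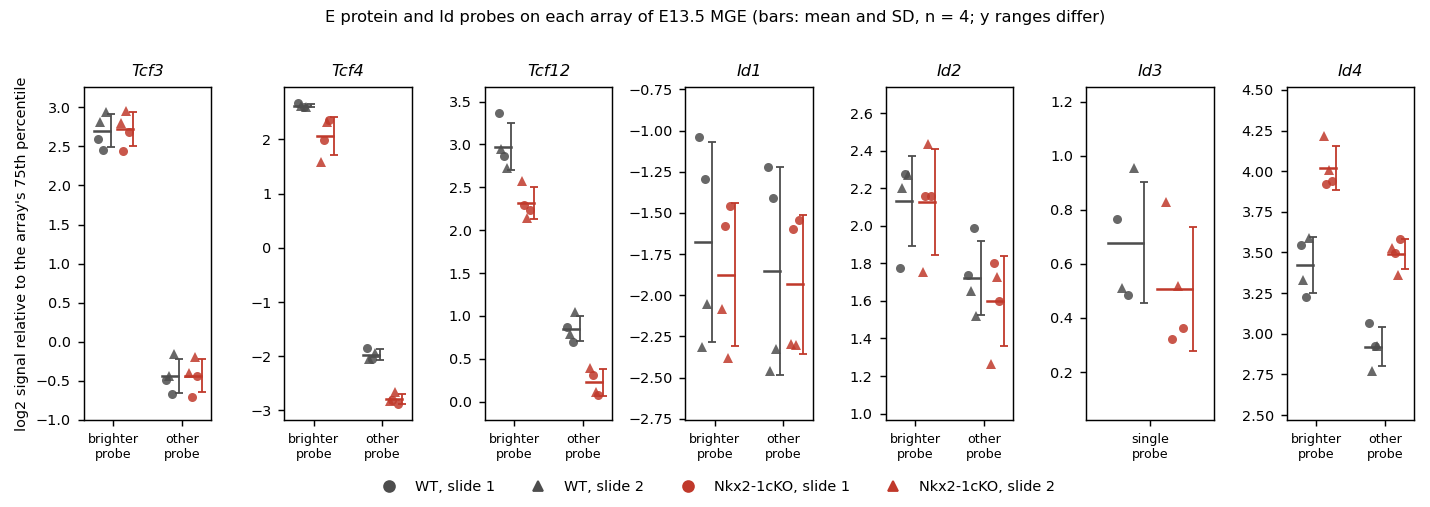
Log2 signal relative to the 75th percentile of the array (y axis, a different range for each gene) for each probe of the 7 genes (x axis), with 1 point per array, grey for WT and red for Nkx2-1cKO, circles for slide 1 and triangles for slide 2, and bars for the mean and SD (n = 4). The groups separate on both probes of Tcf4, Tcf12 and Id4, overlap on Tcf3, Id2 and Id3, and on Id1 the points follow the slide.

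Tcf12, the E protein also called HEB, was lower on both of its probes in Nkx2-1cKO, and the dimmer probe fell past the threshold. On the brighter probe the 4 WT arrays read 3.37, 2.94, 2.86 and 2.73 (mean 2.97 ± 0.28 SD), and the 4 Nkx2-1cKO arrays read 2.57, 2.30, 2.14 and 2.24 (mean 2.31 ± 0.19 SD). The highest Nkx2-1cKO array was 0.15 below the lowest WT array. On the other probe the WT arrays read 0.87, 0.79, 0.70 and 1.05 and the Nkx2-1cKO arrays read 0.40, 0.31, 0.11 and 0.08, again with no overlap and with a gap of 0.30. The log2 fold change was -0.66 (standard error 0.15, 95% interval -0.99 to -0.34, adjusted p = 0.085) on the brighter probe, a level of 63.2% of WT. It was -0.63 (standard error 0.11, 95% interval -0.87 to -0.38, adjusted p = 0.026) on the other, 64.7% of WT. Both gaps gave p = 0.0286 in the exact two-sided permutation test, the smallest that 4 against 4 arrays can give.

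The fall of Tcf12 was present on each slide, at -0.85 on slide 1 and -0.48 on slide 2 for the brighter probe and at -0.59 and -0.67 for the other. WT replicate 1 was the highest array on the brighter probe, and without it that probe read -0.53 (adjusted p = 0.105) and the other -0.62 (adjusted p = 0.0692). The call on the other probe was also lost when WT replicate 2, WT replicate 4, or Nkx2-1cKO replicate 2, 3 or 4 was left out, with values from -0.66 to -0.56 and adjusted p from 0.0562 to 0.094. It was lost with arrays centred on their median (-0.50, adjusted p = 0.316) and without the variance trend (-0.63, adjusted p = 0.0642). The genes on either side of Tcf12 on chromosome 9 did not pass: Cgnl1, a cell junction gene, had a log2 fold change of -0.12 (adjusted p = 0.701), Zfp280d, a zinc finger gene, -0.28 (adjusted p = 0.501), and Mns1, a further gene nearby, -0.02 (adjusted p = 0.971).

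Tcf4, the E protein whose human counterpart is mutated in Pitt-Hopkins syndrome, was also lower on both probes, with the dimmer probe past the threshold. On that probe the WT arrays read -1.85, -2.06, -2.05 and -1.94, and the Nkx2-1cKO arrays read -2.82, -2.80, -2.66 and -2.88. The groups were 0.60 apart, the widest gap of the 13 probes. The log2 fold change was -0.82 (standard error 0.10, 95% interval -1.05 to -0.58, adjusted p = 0.0047), a level of 56.8% of WT, and -0.77 without WT replicate 1 (adjusted p = 0.0109). It was -0.89 on slide 1 and -0.74 on slide 2.

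The brighter Tcf4 probe gave a less even picture. The 4 WT arrays lay within 2.61 to 2.67, whereas the Nkx2-1cKO arrays read 1.59, 2.0, 2.33 and 2.35. The spread among Nkx2-1cKO arrays (SD 0.36) exceeded that among WT arrays (SD 0.03), and Nkx2-1cKO replicate 1 was the lowest. Its log2 fold change of -0.56 (standard error 0.15, 95% interval -0.90 to -0.21) did not pass the threshold (adjusted p = 0.222), and it was -0.40 without Nkx2-1cKO replicate 1 (adjusted p = 0.235). The call on the dimmer probe was lost under 1 other background correction, normexp on the raw median signal, with -0.39 (adjusted p = 0.847).

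Tcf3, which encodes the E protein first found to bind immunoglobulin enhancers, showed no difference past the threshold on either probe. On the brighter probe the WT arrays read 2.60, 2.82, 2.46 and 2.94 and the Nkx2-1cKO arrays 2.80, 2.44, 2.96 and 2.68. On the other, the WT arrays read from -0.66 to -0.15 and the Nkx2-1cKO arrays from -0.71 to -0.19. The 2 groups covered nearly the same range. The log2 fold changes were 0.02 (standard error 0.14, 95% interval -0.29 to 0.32, adjusted p = 0.973) and 0.00 (standard error 0.14, 95% interval -0.31 to 0.31, adjusted p = 0.995). These intervals leave out a fall of Tcf3 as large as the -0.66 of the brighter Tcf12 probe. The difference between Tcf12 and Tcf3 within an array nevertheless changed by -0.68, and that between Tcf4 and Tcf3 by -0.58, without passing the exact permutation test (p = 0.0571 for each, adjusted p = 0.114 over 6 such pairs). The difference between Tcf12 and Tcf4 changed by -0.10 (exact permutation test, p = 0.714, the same after adjustment).

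Id4, an Id inhibitor known from neural progenitors, was the single gene of the 7 with both probes past the threshold, and it rose. On the brighter probe the WT arrays read 3.55, 3.33, 3.23 and 3.59 (mean 3.42 ± 0.17 SD), and the Nkx2-1cKO arrays read 4.22, 3.92, 4.01 and 3.94 (mean 4.02 ± 0.14 SD). On the other probe the WT arrays read 3.07, 2.77, 2.93 and 2.93, and the Nkx2-1cKO arrays read 3.53, 3.50, 3.36 and 3.58. The groups were 0.33 apart on the first and 0.30 on the second, with every Nkx2-1cKO array the higher. The rise was 1.51-fold on the brighter probe (log2 fold change 0.60, standard error 0.11, 95% interval 0.36 to 0.83, adjusted p = 0.0281). It was 1.49-fold on the other (0.57, standard error 0.09, 95% interval 0.38 to 0.76, adjusted p = 0.0114). Within slides the values were 0.54 and 0.65 for the brighter probe and 0.54 and 0.60 for the other, and without WT replicate 1 they were 0.64 (adjusted p = 0.0429) and 0.62 (adjusted p = 0.0134).

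The rise of Id4 was near the threshold. On the brighter probe the call was lost when WT replicate 2 or 3 or Nkx2-1cKO replicate 1, 3 or 4 was left out (0.53 to 0.63, adjusted p 0.0695 to 0.103), and with centring on the median (0.73, adjusted p = 0.0623). On the other it was lost without Nkx2-1cKO replicate 4 (0.54, adjusted p = 0.0508), and on both with normexp (0.49 and 0.50, adjusted p = 0.114 and 0.0915). The direction was the same in all of these. The neighbours of Id4 on chromosome 13, the ubiquitin ligase gene Rnf144b and the zinc finger gene Zfp169, had log2 fold changes of -0.39 (adjusted p = 0.67) and 0.08 (adjusted p = 0.812).

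**Figure D2:**
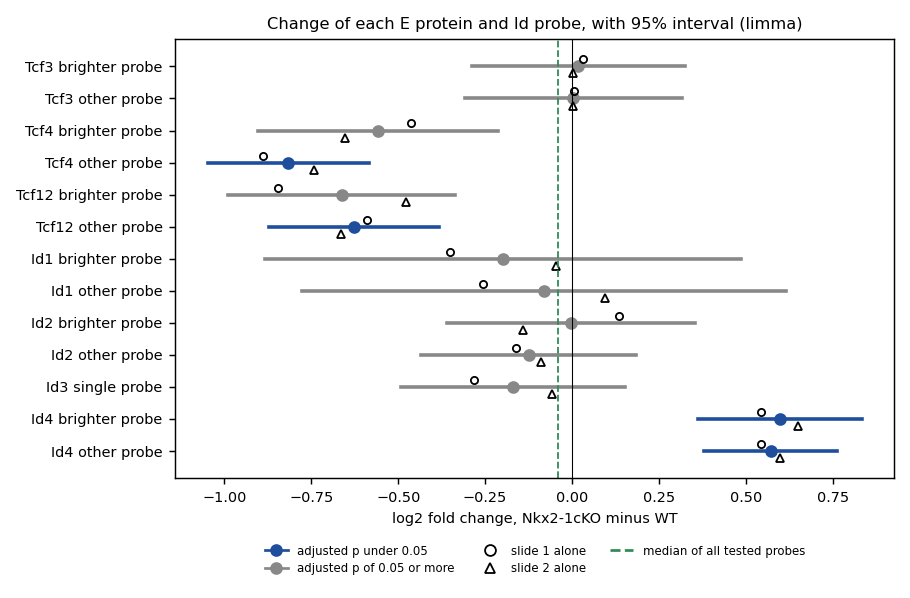
Log2 fold change of each probe, Nkx2-1cKO minus WT (x axis), with its 95% interval from limma, blue where the adjusted p is under 0.05 and grey otherwise, and the values within slide 1 (open circles) and slide 2 (open triangles). Both Id4 probes lie to the right of 0 and both Tcf4 and Tcf12 probes to the left on each slide, while the Id1 intervals are the widest.

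Id2, which is expressed in several differentiating neuron types as well as in progenitors, did not pass. On the brighter probe the WT arrays read 1.77, 2.20, 2.28 and 2.27 and the Nkx2-1cKO arrays 1.75, 2.16, 2.44 and 2.16, with 1 low array in each group. Its log2 fold change was -0.00 (standard error 0.16, 95% interval -0.36 to 0.35, adjusted p = 0.996). On the other probe, where WT arrays read 1.52 to 1.99 and Nkx2-1cKO arrays 1.26 to 1.80, it was -0.12 (standard error 0.14, 95% interval -0.43 to 0.18, adjusted p = 0.763). The 2 Id2 probes were the least alike of any pair over the 8 arrays (Pearson r = 0.48, against 0.80 to 0.97 for the other genes with 2 probes). With group means taken out, r was 0.50 for Id2, below that for Id1 and Tcf3 (0.98 and 0.96) and above that for Tcf4, Tcf12 and Id4 (0.21, 0.25 and 0.32).

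Id3, a BMP-responsive relative of Id1, had 1 probe. The WT arrays read 0.77, 0.51, 0.49 and 0.95 and the Nkx2-1cKO arrays 0.83, 0.32, 0.52 and 0.36, overlapping widely. The log2 fold change was -0.17 (standard error 0.14, 95% interval -0.49 to 0.15, adjusted p = 0.701). The difference between Id4 and Id3 within an array went from 2.74 ± 0.08 to 3.51 ± 0.10 (SD, n = 4 each), the one pair of the 6 compared whose groups did not overlap (change 0.77, exact two-sided permutation test, p = 0.0286, adjusted p = 0.114). The same difference changed by 0.60 for Id2 (exact permutation test, p = 0.0857, adjusted p = 0.129) and by 0.80 for Id1 (exact permutation test, p = 0.171, adjusted p = 0.206).

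Id1, in the brain also a gene of blood vessel endothelium, followed the slide. On the brighter probe WT replicates 1 and 3 and Nkx2-1cKO replicates 2 and 4, all on slide 1, read -1.04, -1.29, -1.58 and -1.46. The arrays on slide 2, WT replicates 2 and 4 and Nkx2-1cKO replicates 1 and 3, read -2.32, -2.05, -2.08 and -2.38. The 2 slides did not overlap, whatever the genotype. In a model with genotype and slide, slide 2 was lower by 0.87 (log2 difference -0.87, standard error 0.12, adjusted p = 0.00241) and on the other Id1 probe by 0.90 (-0.90, standard error 0.10, adjusted p = 0.000652). The slide term passed for 14.3% of all tested probes. Of the other 11 E protein and Id probes, 1 had a slide term past the threshold, the brighter Tcf3 probe, at 0.34 higher on slide 2 (adjusted p = 0.0233).

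The genotype difference of Id1 was -0.20 on the brighter probe (standard error 0.31, 95% interval -0.88 to 0.48, adjusted p = 0.83) and -0.08 on the other (standard error 0.31, 95% interval -0.78 to 0.61, adjusted p = 0.939). With slide as a block the standard errors were 0.12 and 0.10, and neither probe passed (adjusted p = 0.442 and 0.683). Markers of endothelium did not move with genotype: 0 of 11 passed in either direction by limma, 0 also at an unadjusted p under 0.05 (which 4.28% of all tested genes passed as higher and 5.23% as lower), their median log2 fold change was -0.00, and their summed linear level, in units of the 75th percentile of the array, was 12.9 to 18.4 on WT arrays and 14.3 to 18 in Nkx2-1cKO. No E protein or Id probe had a genotype effect that differed between slides past the threshold, and 1 of all tested probes did (0.0032%).

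The tissue-restricted bHLH factors that pair with E proteins include those expressed in the neural tube, of which 18 of 20 had a tested probe. None rose and 3 fell, against 0.851% of all tested genes by their brightest probe, and the median of the list was -0.23 where that of all tested probes was -0.04. Several probes of the list were dim, with a mean log2 level of -1.51 over the list in WT. With no filter on dim probes the median of all probes was -0.10, so the list median is not read as a fall of the group. The 3 that fell were Olig1, Ptf1a and Tal2. Olig1, an oligodendrocyte lineage factor, fell by 1.63 (log2 fold change -1.63, standard error 0.14, adjusted p = 0.00038), from -0.37 ± 0.19 to -2.0 ± 0.23 (SD, n = 4 each). Olig1 lies beside Olig2, the gene that drives Cre in the Nkx2-1cKO arrays alone, and the part of the Cre allele in the level of Olig1 was not tested. Olig2 itself, named after its value was seen, did not pass (log2 fold change 0.15, standard error 0.10, adjusted p = 0.656, limma).

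Ptf1a, a factor that directs GABAergic fate in cerebellum and spinal cord, went from -3.29 ± 0.28 to -5.81 ± 0.29 (SD, n = 4 each), and its change of -2.52 on the log2 scale passed (standard error 0.21, adjusted p = 0.000354). Tal2, a factor of midbrain GABAergic neurons, went from -3.29 ± 0.36 to -5.09 ± 0.22 (log2 fold change -1.80, standard error 0.21, adjusted p = 0.00308). Both probes are dim, and under normexp neither passed (Ptf1a -0.68 and Tal2 -0.51, adjusted p = 0.847 for both). The other 15 neural bHLH genes, proneural factors among them, did not pass.

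Of 20 further bHLH partners, many of them from mesoderm and blood, 13 were tested and 0 passed in either direction by limma, 0 of them even at an unadjusted p under 0.05. The median was -0.32, on mostly dim probes (mean log2 level of the list in WT -4.64). The largest changes were those of Twist1, a mesenchymal factor (-1.06, adjusted p = 0.593), and Ferd3l, a floor plate factor (-1.02, adjusted p = 0.654), both dim, and Twist1 was above background on 1 of 4 Nkx2-1cKO arrays. The Hes, Hey and Dec repressors are helix-loop-helix factors, several of them Notch targets, that oppose proneural factors. Of these, 10 of 11 were tested and 0 passed by limma, with a median of -0.13. At an unadjusted p under 0.05, 2 were lower, where 5.23% of all tested genes were. The 2 largest were Bhlhe41 (-0.63, adjusted p = 0.629), a circadian repressor, and Hey2 (-0.50, adjusted p = 0.51), a Notch target.

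E proteins act through co-repressors of the ETO family and through histone acetyltransferases, and all 6 such genes were tested. One fell, where 0.851% of all tested genes did so by their brightest probe. It was Cbfa2t3, an ETO family co-repressor that binds E proteins, which went from 2.56 ± 0.10 to 1.88 ± 0.17 (SD, n = 4 each, log2 fold change -0.68, standard error 0.10, adjusted p = 0.0112). It was -0.64 on slide 1 and -0.71 on slide 2, and -0.63 without WT replicate 1 (adjusted p = 0.0317), and the call was lost with centring on the median (-0.55, adjusted p = 0.122). The other 5 did not pass, and the next largest was Crebbp, an acetyltransferase gene (-0.24, adjusted p = 0.709). The median over the 6 was -0.17.

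BMP ligands, receptors, Smads and BMP antagonists, which act upstream of Id genes, numbered 19 tested of 20. None passed in either direction by limma, 5 were lower and 2 higher at an unadjusted p under 0.05 (5.23% and 4.28% of all tested genes), and the median was -0.12. Bmp7, a BMP ligand, read -1.73 (standard error 0.39, adjusted p = 0.0905), with all 4 Nkx2-1cKO arrays below all 4 WT arrays, -1.13 on slide 1 and -2.34 on slide 2, and -0.36 under normexp (adjusted p = 0.847). Among the BMP antagonists, Fst (0.72, adjusted p = 0.168) and Nog (0.46, adjusted p = 0.314) had all Nkx2-1cKO arrays above all WT arrays. Grem1 (-0.65, adjusted p = 0.116) had them below, and these 3 were named after their values were seen. Of all tested probes, 4.12% were lower without overlap, as Bmp7 and Grem1 were, and 2.32% were higher without overlap. Bmp6, a further ligand, read -0.88 (adjusted p = 0.643) on a probe that was above background on 6 of 8 arrays.

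**Figure D3:**
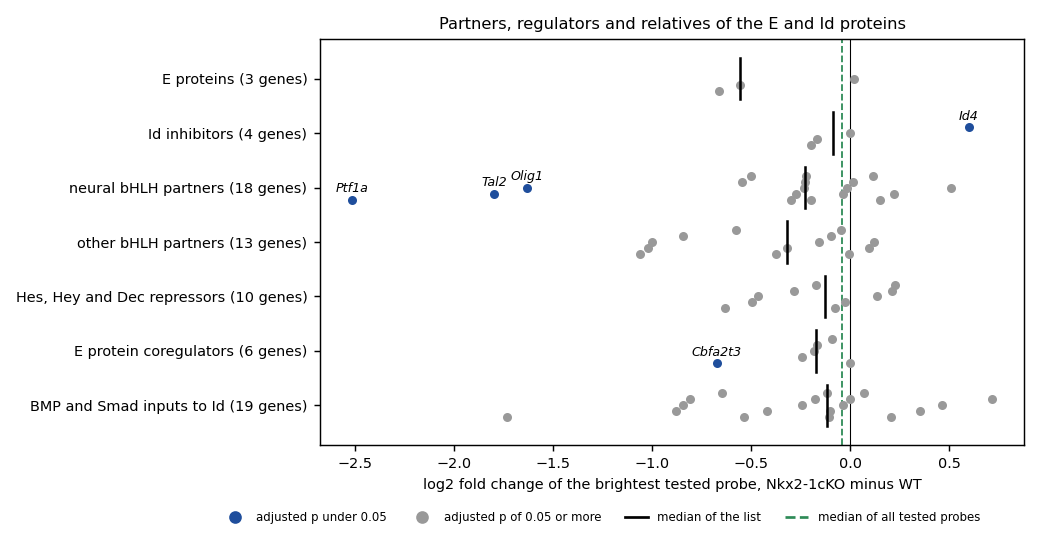
Log2 fold change, Nkx2-1cKO minus WT, of the brightest tested probe of each gene (x axis) for the E proteins, the Id inhibitors and 5 lists of their partners, relatives and regulators, with blue points for an adjusted p under 0.05, black bars for the list medians and a dashed line for the median of all tested probes. The named points are Id4, the single one to the right, and Olig1, Ptf1a, Tal2 and Cbfa2t3 to the left.

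The genes flanking the other E protein and Id genes had no probe past the threshold. Beside Tcf4 on chromosome 18, Ccdc68, a centrosome gene, read -1.37 (adjusted p = 0.171), and Mc2r, the ACTH receptor gene, 0.03 (adjusted p = 0.978). The groups did not overlap on Ccdc68, where 4.12% of all tested probes were lower without overlap. Beside Tcf3, Onecut3, a homeobox gene, read 1.95 (standard error 0.83, adjusted p = 0.556). The remaining flanking genes of Tcf3, Id1, Id2 and Id3 lay between -1.18 and 0.23.

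The genes whose levels over the 8 arrays were most like each member were named by Pearson r over 14420 genes, as a description over arrays that share slide and genotype differences. The group difference is part of this r, so a member that differed favours genes that differed, and an unchanged member favours unchanged genes. The highest r that chance gives among so many genes was not computed. Id4 was most like Trip6 (r = 0.98), an adhesion adaptor gene, Dbx1 (r = 0.98), a homeobox gene of progenitor domains, and Fzd8 (r = 0.96), a Wnt receptor gene. Dbx1 and Fzd8 were themselves higher in Nkx2-1cKO, with log2 fold changes of 2.26 (adjusted p = 0.00763) and 0.92 (adjusted p = 0.00464). Tcf12 was most like Fbxo32 (r = 0.98), a ubiquitin ligase gene, Nlk (r = 0.97), a kinase gene, and Trp53inp1 (r = 0.97), a p53 target that fell by 0.53 (log2 fold change -0.53, adjusted p = 0.0397). Tcf4 was most like Reg1 (r = 0.97), Fam170a (r = 0.95) and Mtcl1 (r = 0.95), of which Reg1 and Fam170a were above background on 1 Nkx2-1cKO array each.

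For the genes that did not pass, the most alike genes did not pass either, which the choice by levels favours. They were Ctnnbl1 (r = 0.98), Gemin4 (r = 0.98) and Fscn1 (r = 0.98) for Tcf3, and E430018J23Rik, Adra1d and Iqck (r = 0.99 for each) for Id1. They were Pip4k2c (r = 0.96), Cabp1 (r = 0.93) and Nrip3 (r = 0.92) for Id2, and Kdm6a, Ctnnb1 and Pdlim2 (r = 0.97 for each) for Id3. With group means taken out, each gene had a different leading gene: Mrps27 for Tcf3, Ago2 for Tcf4, Sgo2a for Tcf12, Adrm1 for Id1, Adrb1 for Id2, Pdlim2 for Id3 and Gstt2 for Id4, with r from 0.97 to 1.00. The next in this order were Nelfe and Nrg1 for Tcf3, Mtcl1 and Gtf3c1 for Tcf4, Sowahc and Tspan12 for Tcf12, E430018J23Rik and Adra1d for Id1, Elfn1 and Slc16a14 for Id2, Trh and Kdm6a for Id3, and Kdm6a and Pdlim2 for Id4. Of these, Nrg1, a neuregulin gene, was higher (0.86, adjusted p = 0.0112) and Elfn1, a synaptic adhesion gene, lower (-1.90, adjusted p = 9.81e-06) in Nkx2-1cKO.

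Id genes and E proteins are used by progenitors, neurons and several non-neural cells, so the markers of these cells are given for the same arrays. Radial glia markers (0 of 8 past the threshold, median -0.02, summed level 97.8 to 124 in WT and 95.6 to 110.4 in Nkx2-1cKO) and dividing cell markers (0 of 12, median 0.11, 97.7 to 122.5 and 100.9 to 125) overlapped between groups. Neuronal markers had 2 of 10 higher, the neurofilament genes Nefl (0.85) and Nefm (0.75), where 0.491% of all tested genes were higher. At an unadjusted p under 0.05, which 5.23% of all tested genes passed as lower, 2 were lower. These were Dcx (-0.25, adjusted p = 0.354) and Elavl4 (-0.30, adjusted p = 0.314), both named after their values were seen. The summed levels were 160.8 to 173 in WT and 164.3 to 181.6 in Nkx2-1cKO. Of 14 markers of the lateral and caudal ganglionic eminences, the neighbouring subpallial domains, 7 rose, where 0.491% of all tested genes did so. They were Ebf1, Isl1, Meis2, Zfp503, Foxp2, Rarb and Six3. The other 7 did not pass by limma, among them Sp8 (0.34, adjusted p = 0.373), Nr2f1 (0.10, adjusted p = 0.974) and Nr2f2 (-0.13, adjusted p = 0.817), named after their values were seen. The list median was 0.63, and its summed level was 44.7 to 59.1 in WT and 84.1 to 92.7 in Nkx2-1cKO. Bright probes weigh most in this sum, and Meis2 went from 4.76 to 5.74 on the log2 scale. Markers of the MGE had a summed level of 57.5 to 59.9 in WT and 9.14 to 10.9 in Nkx2-1cKO.

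Markers of pallium (0 of 9, summed level 25.5 to 30.9 in WT and 29.8 to 37.0 in Nkx2-1cKO), mesenchyme and mural cells (0 of 11, 4.22 to 11.2 and 4.40 to 5.12), erythroid cells (0 of 8, 3.08 to 5.0 and 2.53 to 4.10), microglia (0 of 7, 3.12 to 3.32 and 3.25 to 3.44) and choroid plexus (0 of 5 tested, 0.301 to 0.608 and 0.21 to 0.444) had no gene past the threshold by limma. At an unadjusted p under 0.05, 1 pallial gene was higher and 1 gene of mesenchyme and mural cells lower (4.28% and 5.23% of all tested genes), and none of the other 3 lists, of radial glia or of dividing cells. The part of MGE and of lateral and caudal ganglionic eminence cells in the values of Id4, Tcf4 and Tcf12 was not tested.

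**Figure D4:**
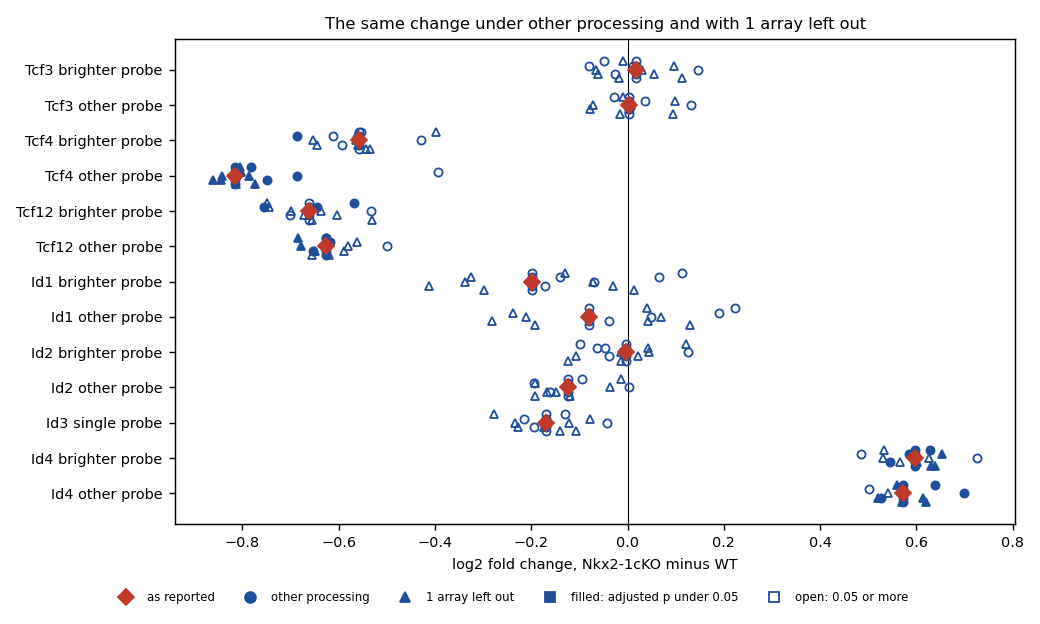
Log2 fold change, Nkx2-1cKO minus WT (x axis), of each probe as reported (red diamonds), under other processing (circles) and with 1 array left out (triangles), filled where the adjusted p is under 0.05. Id4 stays to the right of 0 and Tcf4 and Tcf12 to the left throughout, with calls that come and go, and the Tcf3, Id1 and Id2 probes lie on both sides of 0.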

How the data were processed

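RNA was measured in 8 MGE samples (4 WT, 4 Nkx2-1cKO), 1 array each. Per the labels and file headers, total RNA was amplified, labelled with Cy3 and hybridised to Agilent whole mouse genome arrays. The authors deposited Feature Extraction output (version 10.1 in the submitters' processing notes, 10.7.3.1 in the file headers), in which the processed intensity of each spot is background-corrected and the raw median intensity is not. The deposited files also hold flags, scored 0 or 1, for outliers, saturation and signal well above background. No spot was saturated. The number of arrays limits the precision.

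From these, controls and outlier-flagged spots were dropped, the spots of a probe were averaged, log2 was taken and the 75th percentile of each array (2026 to 2573) was subtracted. Testing was limited to the 31280 of 41174 probes that at least 4 of 8 arrays flagged as well above background. It used limma 3.58.1 in R 4.3.3 (lmFit, eBayes with a variance trend), Benjamini-Hochberg over all of them and a threshold of 0.05. Arrays of 1 group correlated at r = 0.97 to 0.99. Single values were also tested with the exact two-sided permutation test over arrays. Symbols came from RefSeq through the transcript accession (24844 probes matched), and a list counts each gene by its brightest tested probe.

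The members and gene lists were chosen with earlier results of these data known. Named were all probes of the 7 genes, from each partner list the genes past the threshold and the 2 with the largest change, the 3 most alike genes, flanking genes, and Nkx2-1, Lhx6 and Lhx8. The slide term and the differences between pairs of members were added after the values were seen. Results were recomputed with normexp (offset 50), arrays centred on the median, quantile normalization, array weights, no filter, a filter on all 8 arrays, a block for slide or for replicate number, an eBayes fit without the trend, the mean of the probes of a gene, and leaving out each array. The limma fit was also checked on data simulated from the means and spreads of the tested probes. Promoter sequences came from RefSeq, and no protein sequence was used here.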

Additional observations from a re-analysis of the deposited data

Results flagged for a closer look

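Of 54 groups of 4 arrays examined, 3 held an array far from the other 3, and chance gives about 1 in 20. On the brighter Id2 probe, WT replicate 1 read 1.77, where the other WT arrays read 2.20 to 2.28. For Ptf1a, WT replicate 1 read -2.87, where the other WT arrays read -3.49 to -3.39. For Crebbp, Nkx2-1cKO replicate 1 read -3.57, where the other Nkx2-1cKO arrays read -3.16 to -3.10. Without WT replicate 1, the brighter Id2 probe read -0.12 (adjusted p = 0.898, limma) and Ptf1a -2.38 (adjusted p = 0.000628, limma).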

How the results depend on the processing

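The direction of Tcf4, Tcf12, Id3 and Id4 was the same under every alternative run, on each probe. Normexp moved the median of all tested probes from -0.04 to 0.20, and centring on the median moved it to 0.09. Values under either are relative to that shift. The brighter Tcf4 probe by itself passed under no alternative, and the brighter Tcf12 probe passed with normexp (-0.75) and array weights (-0.57). The mean of both probes, which includes the dimmer probe, passed for Tcf4 (-0.69, adjusted p = 0.0137, limma) and for Tcf12 (-0.64, adjusted p = 0.0202, limma). The brighter Id4 probe lost its call with centring (0.73), normexp (0.49), the replicate block (0.60, adjusted p = 0.146) and no variance trend (0.60, adjusted p = 0.0835), and the cause was not tested. With 1 array left out the brighter probes ranged from -0.065 to 0.11 for Tcf3, -0.65 to -0.40 for Tcf4, -0.75 to -0.53 for Tcf12, -0.41 to 0.014 for Id1, -0.12 to 0.12 for Id2, -0.28 to -0.08 for Id3 and 0.53 to 0.65 for Id4, and the other probes from -0.077 to 0.099 for Tcf3 and from -0.28 to 0.13 for Id1.

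Values near 0 changed sign. The brighter Tcf3 probe read -0.026 with quantile normalization, -0.080 with normexp and -0.048 with array weights, and the other Tcf3 probe -0.028 with array weights. Id1 read 0.064 and 0.19 with normexp, 0.11 and 0.22 with array weights, and on its other probe 0.048 with centring and 0.094 within slide 2. Id2 read 0.12 and 0.0038 with centring and, on its brighter probe, 0.13 within slide 1. Under normexp the dim genes Bmp6 (0.51), Crebbp (0.27), Bhlhe41 (0.47), Hey2 (0.046), Twist1 (0.62) and Ferd3l (0.35) changed sign.

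The probes past the threshold numbered 132 higher and 192 lower. Higher, there were 63 with normexp, 209 with slide as a block, 8 with the replicate block, 87 without the variance trend and 65 to 118 with 1 array left out. Lower, there were 115 with centring, 90 with normexp, 65 with the replicate block, 291 with array weights and 130 to 174 with 1 array left out. Of the E protein and Id probes, 1 was higher with centring, 0 with normexp, 0 with the replicate block, 1 without the variance trend and 0 to 2 with 1 array left out. As lower, 1 passed with centring, 0 with the replicate block, 1 without the variance trend and 1 to 2 with 1 array left out. Neural bHLH genes lower numbered 1 with normexp, and coregulators lower 0 with centring and 0 with the replicate block.

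Whether replicate numbers pair the samples could not be told. Same-numbered WT and Nkx2-1cKO arrays had correlations of their deviations from -0.48 to -0.19. They always lay on different slides, and the slide term passed for 14.3% of all tested probes, so these correlations cannot show a pairing. With a block for replicate number in limma, the calls on Id4, Tcf4 (-0.82, adjusted p = 0.128) and Tcf12 (-0.63, adjusted p = 0.214) ended. Slide as a block ended no call on an E protein or Id probe. Both probes of Id4, Tcf4 and Tcf12 were above background on every array.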
